A study of Mus musculus with 10 samples.

Results

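The comparison described here sets the DMSO libraries that carry replicate number 5 against the DMSO libraries that carry replicate number 1. It rests on 4 of the 10 libraries of the series. They were chosen by their labels alone: DMSO5eGFP and DMSO5tdT on one side, DMSO1eGFP and DMSO1tdT on the other, with the sorted population kept as a block. The pair of DMSO libraries numbered 3 was placed beside them, and 6 libraries entered the fit. Each library holds poly(A) RNA of cells of 3xR, a mouse embryonic stem cell line, sorted at day 14 as Col2a1-eGFP+ or Prg4-tdTomato+ from the condition treated with DMSO, a solvent. Col2a1 encodes the main collagen of cartilage and Prg4 encodes lubricin, a lubricating protein of joint surfaces. No label gives a genotype difference, a treatment difference or a time difference between numbers 5, 3 and 1. The labels do not say what a replicate number marks, whether libraries of different numbers came from separate cultures, or how many clones of the line were used, and the p-values below cover no more than the differences among these libraries, which may be technical. A further pair of Prg4-tdTomato+ libraries, numbered 5 and 1 and treated with Fsk, shares no library with the DMSO comparison and is given as 1 value a side. Fsk is the labels' abbreviation, which they do not spell out; it commonly stands for the adenylyl cyclase activator forskolin.

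Stem cell cultures directed towards skeletal fates hold mixtures of cartilage-like, tendon-like and fibroblastic cells, and the balance among them can vary between cultures grown the same way. Osteopontin, encoded by Spp1, is a secreted phosphoprotein of mineralised tissue and of remodelling connective tissue. It binds cells through integrins and through CD44, a receptor better known for binding hyaluronan. Tenomodulin, encoded by Tnmd, is a membrane protein typical of maturing tendon cells, and lysyl oxidase, encoded by Lox, crosslinks collagen fibrils.

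The 6 libraries held between 15561217 and 20408696 counts. Those numbered 5 differed from those numbered 1 and 3 in composition in both sorted populations, as the plot of library composition shows. Ribosomal protein genes took 7.01% of counts in number 5 eGFP+ cells and 8.25% in number 5 tdTomato+ cells, against 12.8% to 23.5% in the 4 libraries numbered 3 or 1. Counts of 10 or more were found for 15452 and 17098 genes at number 5, 13910 and 15896 genes at number 3, and 13930 and 14169 genes at number 1, with the eGFP+ library given first here and in every later pair of values. Genes that GENCODE classes as TEC, transcribed regions still to be experimentally checked, took 0.126% and 0.163% of counts at number 5, 0.0263% and 0.0816% at number 3, and 0.0216% and 0.0286% at number 1. The share of 18S ribosomal RNA varied between 0.0451% and 5.22% over the 6 libraries without following the number, at 5.22% and 0.109% at number 5. No pair of these libraries differed as little as counting noise would give, with a lowest chi-square of 109 per degree of freedom. Scaling factors by TMM were 1.27 and 1.42 at number 5, 0.691 and 0.966 at number 3, and 0.871 and 0.958 at number 1.

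**Figure D1:**
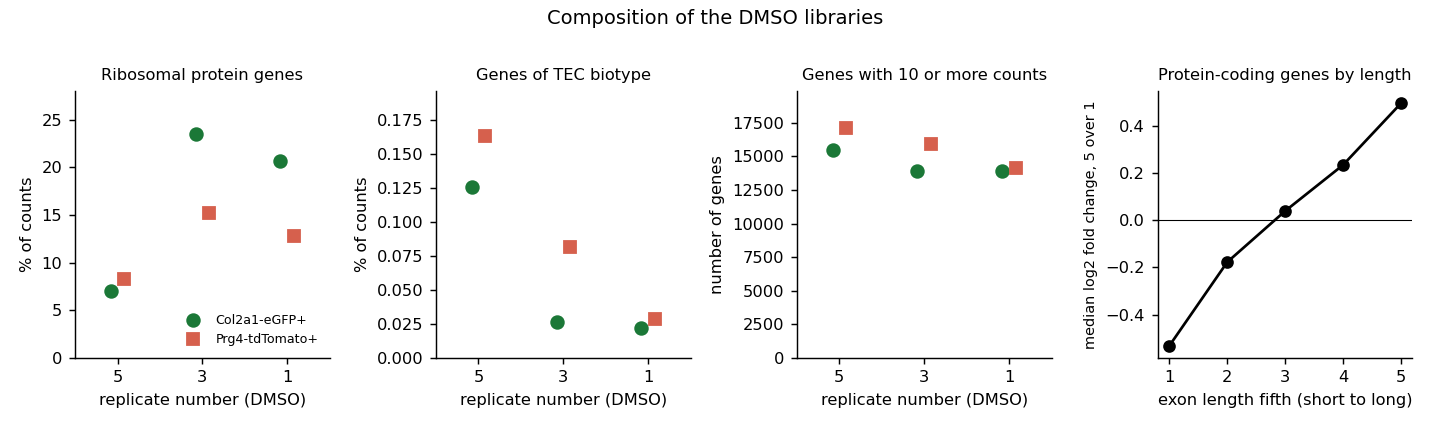
Share of counts in ribosomal protein genes, share of counts in genes of TEC biotype and number of genes with 10 or more counts in each DMSO library numbered 5, 3 or 1 (circles, Col2a1-eGFP+; squares, Prg4-tdTomato+), and the median log2 fold change of number 5 over number 1 in protein-coding genes cut into 5 equal classes by exon length. Both number 5 libraries had the lowest ribosomal protein shares and the highest TEC shares, and the median ran from -0.53 in the shortest class to 0.50 in the longest.

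Fold changes followed gene length and gene class. Among protein-coding genes, the median log2 fold change of number 5 over number 1 was -0.53 in the class with the shortest exons, then -0.18, 0.04 and 0.24, and 0.50 in the class with the longest. The longest class held 488 genes that rose and 87 that fell, and the shortest held 71 that rose and 638 that fell. The 554 tested TEC genes had a median of 2.96, with 80 higher and 0 lower, and 62 sense intronic transcripts had a median of 2.48, with 9 higher and 0 lower. Processed pseudogenes had a median of -0.84, with 7 higher and 166 lower among 835. The part of gene length and gene class in the results below was not tested, and the medians of several lists are also given relative to the median of each gene's own length class.

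In edgeR's quasi-likelihood test with Benjamini-Hochberg adjustment over 16610 tested genes, 1248 genes (7.51%) rose and 1647 genes (9.92%) fell at number 5 against number 1 at an adjusted p below 0.05. Of these, 1111 and 1504 changed by at least 2-fold. The median of all tested genes was 0.08 on the log2 scale. The shares of 7.51% higher and 9.92% lower are the background for every count of called list members below. Each of the 1248 and of the 1647 moved the same way in eGFP+ cells and in tdTomato+ cells, a property that the test itself favours. The within-population differences share no library: over the 16610 genes, the eGFP+ difference and the tdTomato+ difference correlated at r = 0.684, and 75% of genes had the same sign in both. Differences were wider in eGFP+ cells, with an SD over genes of 1.45, than in tdTomato+ cells, with an SD of 1.18. The plot of both sorted populations shows this. In bulk RNA, fewer cells of a type and less RNA per cell cannot be told apart, here and in every result below.

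**Figure D2:**
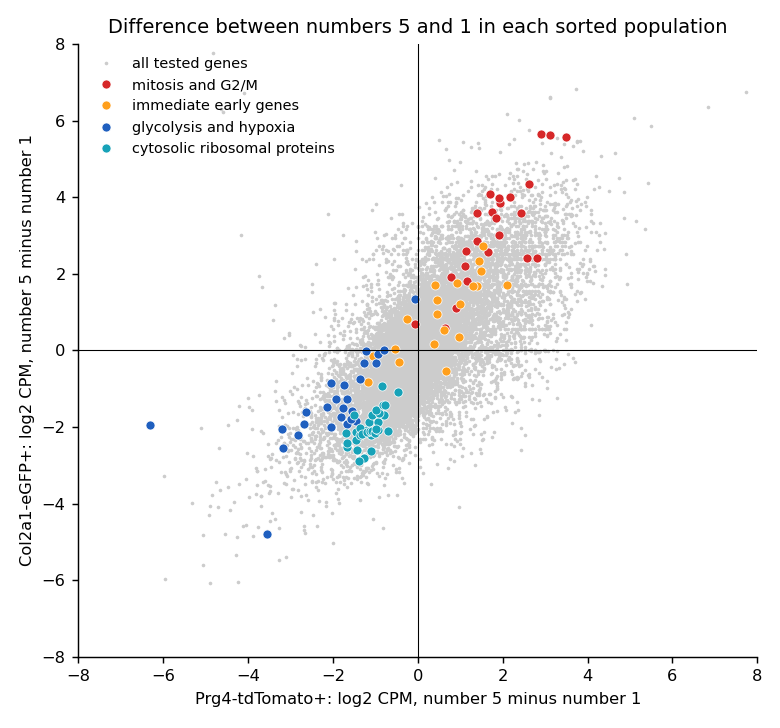
Difference in log2 CPM between the library numbered 5 and the library numbered 1, in Prg4-tdTomato+ cells (horizontal) and Col2a1-eGFP+ cells (vertical), with a grey point for each of 16610 tested genes and coloured points for members of 4 lists. Mitosis genes lie mostly in the upper right corner, and glycolysis and ribosomal protein genes mostly in the lower left.

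With 2 libraries a side and swaps allowed only within a sorted population there are 4 arrangements, so an exact two-sided test of a single gene cannot go below p = 0.5. The adjusted p-values therefore lean on the spread shared over genes, with 2 residual degrees of freedom and a median of 43.8 prior degrees of freedom. That residual spread is how far the differences between numbers disagree between the 2 sorted populations. The labels do not say whether the 2 libraries of a number came from the same culture. They are therefore not taken as independent replicates, and the p-values do not measure variation between cultures. Leaving out the number 1 eGFP+ library lowered the counts to 221 higher and 498 lower, leaving out the number 1 tdTomato+ library to 592 and 724, and leaving out the number 5 eGFP+ library to 355 and 953. Without the number 5 tdTomato+ library the counts were 2179 higher and 2089 lower. With library totals alone in place of TMM factors, 2931 genes were higher and 567 lower, and the median of all genes moved to 0.64, so that a direction below is relative to the bulk of genes. A fit of all 10 libraries called 287 higher and 611 lower.

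The osteopontin gene fell at number 5. Spp1 (ENSMUSG00000029304, GRCm38 chr5:104435118-104441050) had 7547 and 4742 CPM at number 5, 56366 and 20738 CPM at number 3 and 66903 and 38129 CPM at number 1. Both number 5 libraries lay below all 4 others, and on the log2 scale the number 3 libraries lay nearer to those of number 1. The log2 fold change was -3.07 ± 0.62 (SE; edgeR adjusted p = 0.000348), with -3.15 in eGFP+ cells and -3.01 in tdTomato+ cells. The call was lost without the number 1 eGFP+ library, at -3.22 with an adjusted p of 0.0588, and without the number 1 tdTomato+ library, at -2.91 with an adjusted p of 0.0756. Among Fsk libraries, Spp1 stood at 4890.1 CPM at number 5 and 6954 CPM at number 1, a difference of -0.51 on the log2 scale.

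The receptor gene Cd44 (ENSMUSG00000005087, GRCm38 chr2:102811141-102901665) fell as well, with 53.5 and 57.3 CPM at number 5, 202 and 145 CPM at number 3 and 261 and 234 CPM at number 1. Both number 5 libraries were below both number 1 libraries, and the log2 fold change was -2.15 ± 0.33 (edgeR adjusted p = 4.45e-06). Tnmd (ENSMUSG00000031250, GRCm38 chrX:133850980-133865577) went the other way, with 58.3 and 42.9 CPM at number 5, 7.1 and 9.48 CPM at number 3 and 11.97 and 11.8 CPM at number 1. Both number 5 libraries were above all 4 others, at a log2 fold change of 2.09 ± 0.35 over number 1 (edgeR adjusted p = 2.57e-05). Cd44 and Tnmd kept their calls in all 18 alternatives, and their Fsk differences were -0.90 and 0.45. The eGFP+ library numbered 4, which has no tdTomato+ DMSO partner, had 47.7 CPM of Tnmd, 97.4 CPM of Cd44 and 40016 CPM of Spp1.

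Lox had 589 and 537 CPM at number 5, 1248 and 1469 CPM at number 3 and 863 and 1912 CPM at number 1. The number 5 libraries were below the others, but the number 1 libraries differed from each other more than the eGFP+ pair did between numbers. Its log2 fold change was -1.21 ± 0.42 (edgeR adjusted p = 0.0377), made of -0.55 in eGFP+ cells and -1.83 in tdTomato+ cells. Lox lost its call when any 1 of 5 libraries was left out, with log2 fold changes from -1.77 without the number 1 eGFP+ library to -0.61 without the number 1 tdTomato+ library, and of the leave-outs only that of the number 5 eGFP+ library kept the call. The call was kept in 7 of 18 alternatives in all. Lost calls include the 1 CPM filter, numbers 5 and 1 alone, all 10 libraries, no sorted population term, the 2-fold threshold and library totals alone. The plot of the 4 marker genes shows each library.

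**Figure D3:**
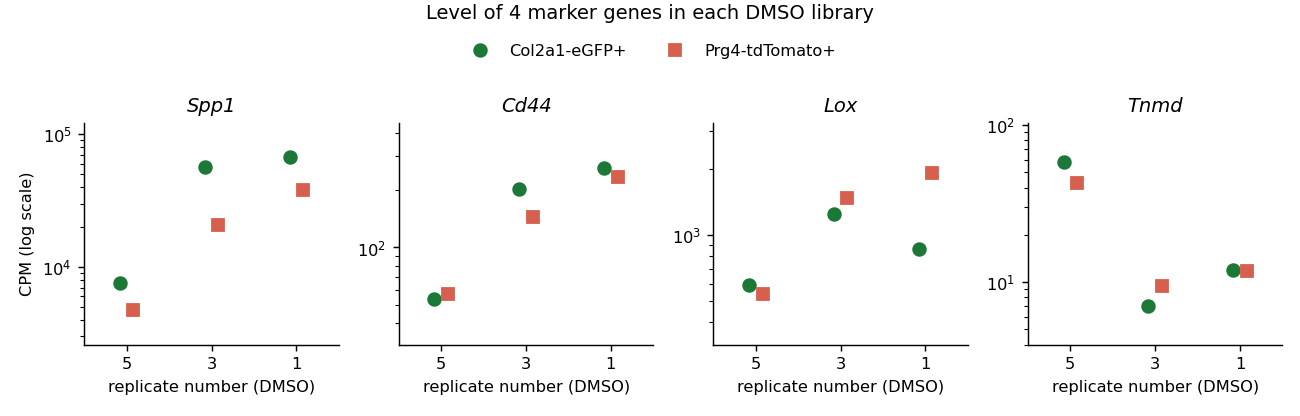
Level of Spp1, Cd44, Lox and Tnmd in CPM on a log axis in the DMSO libraries numbered 5, 3 and 1 (circles, Col2a1-eGFP+; squares, Prg4-tdTomato+; 1 library each). Spp1, Cd44 and Lox were lowest and Tnmd was highest in both number 5 libraries.

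Neither reporter gene passed the test. Col2a1 had 1893 and 81.5 CPM at number 5, 2983 and 387 CPM at number 3 and 837 and 187 CPM at number 1. It was higher in the eGFP+ library than in the tdTomato+ library at each number, and the number effect was 1.18 in eGFP+ cells and -1.20 in tdTomato+ cells, at a fitted log2 fold change of 0.05 ± 0.46 (edgeR adjusted p = 0.957). The mRNA of Prg4 was at or near 0 in all 6 libraries, tdTomato+ ones included: 0.205 and 0.476 CPM at number 5, 0 and 0.769 CPM at number 3 and 2.55 and 1.25 CPM at number 1. Its fold change of -2.81 ± 1.42 did not pass the test (edgeR adjusted p = 0.172), and these cells are named below by their sort and not by lubricin expression.

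Among receptors and adapters through which cells grip osteopontin, collagen and fibronectin, 9 of 18 fell and 3 rose at number 5, against 9.92% lower and 7.51% higher among all tested genes, with a list median of -1.11. Itga2, the alpha chain of a collagen-binding integrin, had 4.35 and 2.89 CPM at number 5, 14.05 and 8.46 CPM at number 3 and 45.9 and 49.5 CPM at number 1. In both populations number 5 was lowest and number 1 highest, and the log2 fold change over number 1 was -3.76 ± 0.39 (edgeR adjusted p = 1.04e-09). Itga3, a chain of laminin receptors, had 11.2 and 8.88 CPM at number 5, against 32.6 and 40.2 CPM at number 1 (log2 fold change -1.86). The alpha v and beta 3 chains, which pair in the best known osteopontin receptor, also fell. Itgav had 143 and 101 CPM at number 5, 138 and 130.1 CPM at number 3 and 291 and 325 CPM at number 1, and Itgb3 had 161 and 149 CPM at number 5, 324 and 300.4 CPM at number 3 and 393 and 552 CPM at number 1. Number 3 was near number 5 for Itgav and in between for Itgb3, with fold changes of -1.35 and -1.60 for number 5 over 1. Itga5, the fibronectin receptor chain, Itgb1 and the syndecans Sdc4 and Sdc1 fell by 1.28, 1.10, 1.23 and 1.12 on the log2 scale. The 3 that rose were Itga10, the collagen receptor chain typical of chondrocytes, with 20.5 and 13.9 CPM at number 5, against 3.03 and 1.99 CPM at number 1 (log2 fold change 2.78 ± 0.46, edgeR adjusted p = 1.77e-05), Itga9 (1.56) and Itga4, which had 1.99 and 0.278 CPM at number 5 and 0 and 0.0523 CPM at number 1. Leaving out the number 1 tdTomato+ library took the members that fell to 3, and the median of the list in the Fsk pair was -0.58.

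Genes of mineralised matrix had a median of -0.91. Of 9 tested, 4 fell and 0 rose, against 9.92% lower and 7.51% higher among all tested genes. Besides Spp1 these were Ibsp, Enpp1 and Dmp1. Bone sialoprotein, encoded by Ibsp, had 0.665 and 0.952 CPM at number 5, 133 and 83.2 CPM at number 3 and 6.68 and 3.14 CPM at number 1. It was lowest at number 5 and far highest at number 3 in both populations, so that the fold changes were -2.46 ± 0.41 for number 5 over 1 (edgeR adjusted p = 2.45e-05) and 4.49 for number 3 over 1 (edgeR adjusted p = 3.89e-11). Dmp1, a phosphoprotein of osteocyte matrix, had 231 and 189 CPM at number 5, against 739 and 583 CPM at number 1 (log2 fold change -1.66). Enpp1, which makes the mineral inhibitor pyrophosphate, had 393 and 357 CPM at number 5, against 1106 and 1378 CPM at number 1 (log2 fold change -1.74), a call that was lost without the number 1 tdTomato+ library, at -1.36 with an adjusted p of 0.146. The genes Alpl, Bglap, Mepe and Sost of the same list did not pass the filter on low counts, with at most 11 reads in any of the 6 libraries. Mgp, an inhibitor of mineral, had 3771 and 3865 CPM at number 5, against 4079 and 1437 CPM at number 1 and did not pass the test (edgeR adjusted p = 0.384). Among 11 tested regulators of osteoblasts and of cartilage hypertrophy, 2 fell, against 9.92% of all tested genes. The collagenase gene Mmp13 had 13.1 and 12.9 CPM at number 5, 92.9 and 101 CPM at number 3 and 47.6 and 47.7 CPM at number 1, and Pth1r, the receptor for parathyroid hormone-related protein, had 21.9 and 23.3 CPM at number 5, against 67.99 and 66.9 CPM at number 1. Their log2 fold changes were -1.87 ± 0.32 and -1.57 ± 0.32 (edgeR adjusted p = 3.31e-05 and 0.000409).

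Enzymes that modify and crosslink collagen had a median of -0.67 and a negative fitted fold change in all 16. Of these, 3 were called lower and 0 higher, against 9.92% and 7.51% of all tested genes. Relative to the length classes the median was -0.42. The median within eGFP+ cells was 0.05 and within tdTomato+ cells -0.93. With library totals alone the list median was -0.10 and 1 member was called lower. At the 2-fold threshold 0 were called lower. Plod3, a lysyl hydroxylase and glycosyltransferase, had 130.4 and 115 CPM at number 5, 495 and 325 CPM at number 3 and 347 and 390.2 CPM at number 1. It was lowest at number 5 in both populations, at a log2 fold change of -1.60 ± 0.34 over number 1 (edgeR adjusted p = 0.000733). P4ha2, a subunit of prolyl hydroxylase, had 217 and 125 CPM at number 5, against 362 and 309 CPM at number 1 (log2 fold change -1.04, edgeR adjusted p = 0.0341). The P4ha2 call was kept in 9 of 18 alternatives. Lost calls include numbers 5 and 1 alone, no sorted population term, the 2-fold threshold and library totals alone. Of the leave-outs, only that of the number 5 eGFP+ library kept the P4ha2 call. Over the leave-outs its log2 fold change ran from -1.39 to -0.65. Leaving out the number 1 tdTomato+ library left 0 of the 3 calls (Plod3 at -1.27, adjusted p = 0.110).

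Collagen genes were called in both directions. Of 16 fibrillar and fibril-associated collagens 2 rose and 3 fell, against 7.51% higher and 9.92% lower among all tested genes. Their median was -0.08, or -0.56 relative to the length classes, and turned to 0.50 with library totals alone. Col14a1, the chain of the fibril-associated collagen XIV, had 69.7 and 25.9 CPM at number 5, 5.81 and 4.97 CPM at number 3 and 1.1 and 0.47 CPM at number 1. The number 5 libraries were far above the others and number 3 lay between, at a log2 fold change of 5.87 ± 0.48 over number 1 (edgeR adjusted p = 5.99e-12), the smallest p of the comparison. Col8a2, a network-forming collagen chain, had 606 and 612 CPM at number 5, 158 and 333 CPM at number 3 and 79.97 and 149 CPM at number 1 (log2 fold change 2.51). Col5a3 had 2.1 and 5.83 CPM at number 5, against 11.3 and 37.7 CPM at number 1 (log2 fold change -2.57), and Col6a3 and Col16a1 were the other two that fell. The most abundant fibrillar collagens did not pass the test. Col1a1 had 6904 and 6797 CPM at number 5, 4004 and 11003 CPM at number 3 and 3582 and 11324 CPM at number 1, and Col1a2 had 5179 and 4826 CPM at number 5, 4715 and 9166 CPM at number 3 and 2400.2 and 5643 CPM at number 1. Both had more counts in tdTomato+ than in eGFP+ cells at numbers 3 and 1 and nearly equal counts at number 5, with fitted changes of 0.17 ± 0.52 and 0.47 ± 0.49.

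Of 23 tested tendon genes, 7 rose and 2 fell, against 7.51% higher and 9.92% lower among all tested genes. The list median was 0.20, and the direction varied within the list. The median was 0.94 within eGFP+ cells and -0.23 within tdTomato+ cells. Besides Tnmd and Col14a1, the matrix genes Cilp2 and Fmod rose. Cilp2, a cartilage intermediate layer protein, had 78.03 and 51.4 CPM at number 5, 40.3 and 49.98 CPM at number 3 and 10.6 and 8.15 CPM at number 1, and Fmod, the gene of the fibril-regulating proteoglycan fibromodulin, had 667 and 362 CPM at number 5, 290.0 and 126 CPM at number 3 and 107 and 115 CPM at number 1. For Cilp2, all libraries of numbers 5 and 3 were above number 1 (log2 fold change of number 5 over 1 2.78 ± 0.35, edgeR adjusted p = 8.87e-08). For Fmod, number 5 was highest, at 2.10 ± 0.36 (edgeR adjusted p = 3.06e-05), and the call was lost without the number 1 eGFP+ library, at 1.55 with an adjusted p of 0.0965. The regulators Eya1, Egr1 and Egr2 rose too. Lists share members, so their counts are not separate results. Egr1 and Egr2 are also counted among the immediate early genes that rose. Col14a1 is also counted among the collagens, Cilp2 among joint surface genes and Fmod among small leucine-rich proteoglycans. Chad is counted in both the chondrocyte and the proteoglycan list. Scx and Mkx, transcription factors that specify and maintain tendon, did not pass the test: Scx had 110.1 and 227 CPM at number 5, against 223 and 164 CPM at number 1, and Mkx had 12.6 and 18.6 CPM at number 5, against 5.92 and 17.5 CPM at number 1. Their fold changes were -0.25 ± 0.34 and 0.57 ± 0.41. Htra3, a secreted serine protease, fell along with Lox (17.9 and 7.34 CPM at number 5, against 46.2 and 30.4 CPM at number 1). Leaving out the number 1 eGFP+ library gave 5 tendon genes called higher.

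Of 23 tested chondrocyte genes, 9 rose and 1 fell, against 7.51% higher and 9.92% lower among all tested genes. The list median was 0.56, or 0.32 relative to the length classes. The median was 1.17 within eGFP+ cells and 0 within tdTomato+ cells. Chad, the cell-binding cartilage protein chondroadherin, had 82.3 and 26.8 CPM at number 5, 101 and 18.1 CPM at number 3 and 13.2 and 5.54 CPM at number 1. Numbers 5 and 3 were both above number 1 in each population, at log2 fold changes of 2.45 and 2.36. Ucma, a secreted cartilage protein, had 24.95 and 0.476 CPM at number 5, 67.9 and 1.54 CPM at number 3 and 2.2 and 0.105 CPM at number 1. Cnmd, which encodes chondromodulin, had 41.8 and 0.833 CPM at number 5, 30.5 and 0.82 CPM at number 3 and 3.92 and 0.314 CPM at number 1. Both were far higher in eGFP+ than in tdTomato+ cells at every number, and in both populations number 1 was the lowest. The tdTomato+ order rests on few reads, at numbers 5, 3 and 1: 12, 30 and 2 for Ucma and 21, 16 and 6 for Cnmd. Their log2 fold changes of number 5 over 1 were 3.28 and 2.83. Without the number 1 eGFP+ library these were 2.18 and 1.49, and both calls were lost. The call of Cnmd was also lost without the number 5 eGFP+ library, at 2.06. Col9a2, Col9a3 and Col11a2, chains of the collagens that decorate cartilage fibrils, rose by log2 fold changes of 1.38, 1.59 and 1.68, and Sox6, a chondrogenic transcription factor, by 1.34. Matn3 and Matn4 rose and Snorc fell. The core regulator Sox9 had 169 and 146 CPM at number 5, against 129.5 and 139.6 CPM at number 1, and the proteoglycan gene Acan had 444 and 127 CPM at number 5, against 268 and 361 CPM at number 1; neither passed the test (edgeR adjusted p = 0.696 and 0.488). Without the number 1 eGFP+ library 2 chondrocyte genes were called higher, and with the sorted population left out of the model 0 were.

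**Figure D4:**
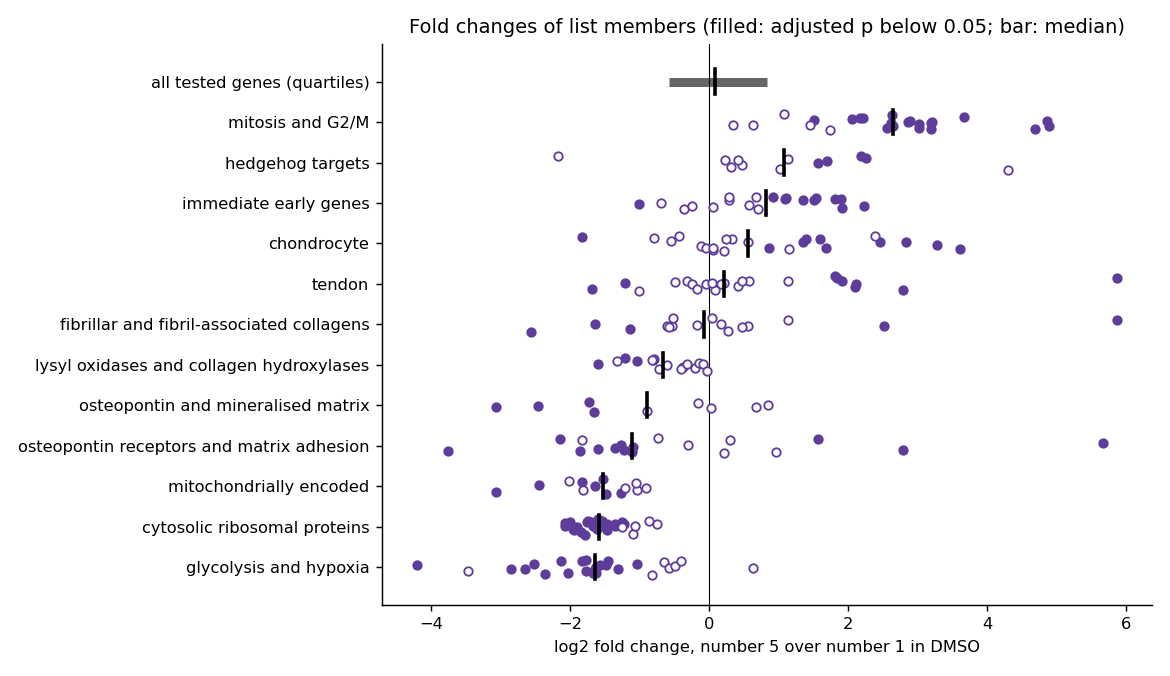
Log2 fold change of number 5 over number 1 in DMSO for the tested members of 12 lists (a point per gene, filled where the edgeR adjusted p was below 0.05; vertical bar, list median), with the quartile range and median of all 16610 tested genes in the top row. Mitosis genes had a median of 2.63, and glycolysis, ribosomal protein and mitochondrially encoded genes had medians between -1.64 and -1.53.

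Joint surface genes were mixed, with 4 of 14 higher and 1 lower, against 7.51% higher and 9.92% lower among all tested genes. Erg, a transcription factor of developing joint cartilage, had 57.4 and 32.6 CPM at number 5, 11.8 and 11.2 CPM at number 3 and 7.43 and 8.68 CPM at number 1 and rose (log2 fold change 2.44 ± 0.37, edgeR adjusted p = 4.05e-06). Tppp3, a tubulin-binding protein that marks tendon sheath and synovial cells, had 29.9 and 33.6 CPM at number 5, 36.8 and 26.5 CPM at number 3 and 206 and 145 CPM at number 1 and fell (-2.43 ± 0.33, edgeR adjusted p = 4.57e-07). For Tppp3, numbers 5 and 3 overlapped and number 1 stood above both. Among matrix proteinases and their inhibitors, 2 of 21 rose and 4 fell, against the same 7.51% and 9.92% of all tested genes. Timp1, an inhibitor of metalloproteinases, had 621 and 752 CPM at number 5, against 4522 and 2448 CPM at number 1 (log2 fold change -2.28, lost without the number 1 eGFP+ library at an adjusted p of 0.0999). Mmp3, stromelysin, had 8.28 and 2.18 CPM at number 5, against 19.7 and 36.7 CPM at number 1 (log2 fold change -2.79, lost without the number 1 tdTomato+ library at an adjusted p of 0.134). Small leucine-rich proteoglycans had 4 of 12 higher and 2 lower, Lum and Podnl1, at a median of 0.80, and 1 was called higher without the number 1 eGFP+ library.

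Among hedgehog pathway genes 4 of 12 rose and 0 fell, with a median of 1.07. Gli2, a transcription factor of the pathway, had 37.99 and 37.7 CPM at number 5, 5.66 and 23.4 CPM at number 3 and 6.88 and 11.1 CPM at number 1, and its target Gli1 had 6.55 and 8.33 CPM at number 5, against 1.51 and 1.57 CPM at number 1. The co-receptor gene Boc had 282 and 327 CPM at number 5, against 62.8 and 146 CPM at number 1. Gas1, another co-receptor for hedgehog ligands, had 174 and 168 CPM at number 5, against 48.998 and 68.3 CPM at number 1. All 4 were higher in both number 5 libraries than in both number 1 libraries, at log2 fold changes of 2.18, 2.25, 1.69 and 1.57. The test itself favours such a separation in called genes. Ptch1, the receptor and a standard target gene, had 37.4 and 24.3 CPM at number 5, against 20.3 and 24.7 CPM at number 1 and did not pass the test (edgeR adjusted p = 0.37). Without the number 1 eGFP+ library 1 member was called, Boc standing at 1.37 with an adjusted p of 0.134.

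In the insulin-like growth factor list 6 of 14 rose and 2 fell, at a median of 0.67, or 0.28 relative to the length classes. The growth factor gene Igf1 had 43.6 and 39.9 CPM at number 5, 9.17 and 11.5 CPM at number 3 and 6.19 and 19.3 CPM at number 1, and Igfbp3, a binding protein that carries the growth factors, had 204 and 159 CPM at number 5, 37.9 and 70.1 CPM at number 3 and 31.6 and 57.5 CPM at number 1. Number 5 was above number 1 in both populations for each gene, and the log2 fold changes were 1.86 ± 0.38 and 2.12 ± 0.34 (edgeR adjusted p = 0.000409 and 1.22e-05). In the Fsk pair their differences were 2.26 and 0.92. Only 1 member was called higher without the number 1 eGFP+ library. In other signalling lists, against 7.51% of all genes higher and 9.92% lower, 4 of 18 WNT antagonists and targets rose and 1 fell, 2 of 17 BMP genes rose and 3 fell, 2 of 17 TGF-beta genes rose and 4 fell, and 5 of 14 YAP and TEAD targets rose and 2 fell. The YAP and TEAD targets called higher numbered 0 when the number 5 or the number 1 eGFP+ library was left out, and 1 when the number 1 tdTomato+ library or either number 3 library was left out. Without the number 1 eGFP+ library 0 BMP genes were called in either direction, and without the number 1 tdTomato+ library 0 TGF-beta genes were called higher and 1 lower. The secreted WNT antagonist Sfrp2 had 9.82 and 9.72 CPM at number 5, against 0.963 and 0.523 CPM at number 1 (log2 fold change 3.89 ± 0.67, edgeR adjusted p = 4.45e-05). Inhba, which encodes the activin A subunit, had 43.97 and 26.2 CPM at number 5, against 114 and 102 CPM at number 1 (-1.66 ± 0.32, edgeR adjusted p = 0.000179). Nt5e, the ecto-enzyme CD73, had 92.1 and 29.5 CPM at number 5, against 411 and 370.2 CPM at number 1 (-2.95 ± 0.37, edgeR adjusted p = 8.58e-08).

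Genes of mitosis and the G2 to M transition were higher at number 5. Of 24 tested members 19 rose and 0 fell, at a median of 2.63, or 2.61 relative to the length classes. Mki67, which encodes the proliferation marker Ki-67, had 41.1 and 12.3 CPM at number 5, 5.95 and 4.1 CPM at number 3 and 0.757 and 0.993 CPM at number 1. Top2a, a topoisomerase that untangles chromosomes, had 56.5 and 15.9 CPM at number 5, 12.5 and 14.8 CPM at number 3 and 3.23 and 4.81 CPM at number 1. In both genes the order was number 5, then 3, then 1 in eGFP+ cells, with tdTomato+ cells lower than eGFP+ cells at number 5. The log2 fold changes of number 5 over 1 were 4.68 ± 0.52 and 3.02 ± 0.49 (edgeR adjusted p = 8.56e-09 and 0.000118). Hmmr, a spindle protein, had 15.8 and 2.66 CPM at number 5, 6.31 and 5.18 CPM at number 3 and 0.206 and 0.261 CPM at number 1. Its tdTomato+ level was lower at number 5 than at number 3, and both were above number 1, over which it rose by 4.88 ± 0.72 (edgeR adjusted p = 3.14e-06). Cyclin genes of the same phase also rose, Ccnb1 with 24.1 and 6.62 CPM at number 5, against 1.86 and 1.88 CPM at number 1 and Ccna2 with 19.3 and 5.99 CPM at number 5, against 1.1 and 1.25 CPM at number 1. Cdk1, their kinase partner, had 46.8 and 19.03 CPM at number 5, against 28.9 and 19.9 CPM at number 1, which did not pass the test (edgeR adjusted p = 0.508). The summed level of the list was 455 and 166 CPM at number 5, 174 and 174 CPM at number 3, and 76.0 and 62.5 CPM at number 1. The number of members called was 7 without the number 5 eGFP+ library, and 0 in a fit of all 10 libraries with group and number as terms. In the Fsk pair the list went the other way, with a median of -0.60 and 21 of 24 members lower at number 5. Genes of DNA replication and the G1 to S transition had 2 of 20 higher, Cdt1 and Tk1, and 1 lower, Mcm6. Among all tested genes 7.51% were higher and 9.92% lower.

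Promoters of the mitosis genes are shown because a short element, TTTGAA, is known from human and mouse cell cycle genes as the binding site through which they are held silent outside G2 and M (the cell cycle genes homology region). Windows run from 250 bases before to 50 bases after each RefSeq start (GRCm38.p6), and TTTGAA was searched on both strands, alone and with no overlap with another motif. Of 24 members 20 matched the RefSeq table, with 21 windows, and 16 of these (76.2%) held the letters, against 11.9% of 14530 windows of tested genes and 17.9% of all 32851 windows. A match is a description of the letters in a window and not a binding site. Capitals mark the matches in the windows of the 2 called members with the smallest p among those with a single listed window that held the element: Mki67 (chr7:135716330-135716629, minus strand, first match at -116 from the start) and Hmmr (chr11:40733388-40733687, minus strand, match at 8).
Mki67: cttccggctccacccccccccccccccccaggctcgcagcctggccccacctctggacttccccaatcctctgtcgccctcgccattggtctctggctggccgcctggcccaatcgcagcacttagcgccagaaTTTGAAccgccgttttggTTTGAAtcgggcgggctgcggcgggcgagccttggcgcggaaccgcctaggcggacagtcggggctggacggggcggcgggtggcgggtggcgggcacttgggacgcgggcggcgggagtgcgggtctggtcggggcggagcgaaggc
Hmmr: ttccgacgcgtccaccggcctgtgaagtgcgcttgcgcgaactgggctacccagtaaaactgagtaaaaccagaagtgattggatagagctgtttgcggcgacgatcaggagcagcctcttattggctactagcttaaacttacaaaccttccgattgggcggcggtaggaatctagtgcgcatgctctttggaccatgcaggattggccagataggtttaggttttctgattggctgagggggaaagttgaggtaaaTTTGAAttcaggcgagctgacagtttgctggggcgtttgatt

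Genes of glycolysis and of the hypoxia response were lower at number 5. Of 26 tested members 19 fell and 0 rose, at a median of -1.64, or -1.57 relative to the length classes, and the medians in the 2 sorted populations were -1.55 and -1.75. Ankrd37, a target of hypoxia-inducible factors, had 2.66 and 2.34 CPM at number 5, 16.1 and 6.97 CPM at number 3 and 76.9 and 28.5 CPM at number 1. Egln3, the oxygen-sensing prolyl hydroxylase that hypoxia induces, had 38.5 and 21.5 CPM at number 5, 209.6 and 128 CPM at number 3 and 159 and 198 CPM at number 1. Numbers 5 and 1 were far apart in both genes, while number 3 lay between them for Ankrd37 and overlapped number 1 for Egln3. Log2 fold changes of number 5 over 1 were -4.21 ± 0.40 and -2.65 ± 0.35 (edgeR adjusted p = 2.02e-10 and 2.3e-07). Aldoc, a fructose-bisphosphate aldolase, had 30.4 and 18.95 CPM at number 5, 54.1 and 45.6 CPM at number 3 and 178 and 172 CPM at number 1, the number 1 libraries being the highest (-2.86 ± 0.33, edgeR adjusted p = 1.88e-08). The main glycolytic enzymes fell together: Pkm, pyruvate kinase, had 1221 and 1082 CPM at number 5, against 4898 and 4482 CPM at number 1, Ldha, lactate dehydrogenase, had 884 and 808 CPM at number 5, against 3327 and 2568 CPM at number 1, and Pgk1, phosphoglycerate kinase, had 1444 and 942 CPM at number 5, against 3478 and 3585 CPM at number 1. The glucose transporter gene Slc2a1 had 279 and 221 CPM at number 5, 2418 and 1067 CPM at number 3 and 667 and 698 CPM at number 1 and was lowest at number 5 and highest at number 3. Car9, a carbonic anhydrase, and Ndrg1, both induced by hypoxia, fell by 2.14 and 2.53 on the log2 scale. Vegfa, P4ha1, Hk1, Hk2, Pgam1 and Slc2a3 did not pass the test. Gapdh had 145 and 7.69 CPM at number 5, against 558 and 619 CPM at number 1, far apart between the number 5 libraries (SE 1.91), and shares reads with near-identical pseudogenes, so its value is uncertain. Between the Fsk libraries, 25 of 26 members were lower at number 5, 21 of them by more than 2-fold against 11.8% of all tested genes, at a median of -1.49. Members called fell to 7 without the number 1 tdTomato+ library and to 12 without the number 1 eGFP+ library.

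Promoters of these genes are shown because hypoxia-inducible factors bind a core spelled ACGTG or GCGTG. It was searched on both strands in the same windows, and it overlaps the E-box CACGTG. Of 26 members 24 matched, with 34 windows, and 28 windows (82.4%) held it, against 60.3% of windows of tested genes and 43.8% of all windows. Capitals mark the matches in Ankrd37 (chr8:45999801-46000100, minus strand, 4 matches, 2 of them overlapping) and in Egln3 (chr12:54203825-54204124, minus strand, match at -229), chosen by the same rule.
Ankrd37: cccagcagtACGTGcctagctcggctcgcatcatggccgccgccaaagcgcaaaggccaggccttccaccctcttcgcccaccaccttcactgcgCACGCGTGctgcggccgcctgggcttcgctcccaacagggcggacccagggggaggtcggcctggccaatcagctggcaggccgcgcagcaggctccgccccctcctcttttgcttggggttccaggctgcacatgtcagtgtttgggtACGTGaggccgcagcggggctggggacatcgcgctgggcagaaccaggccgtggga
Egln3: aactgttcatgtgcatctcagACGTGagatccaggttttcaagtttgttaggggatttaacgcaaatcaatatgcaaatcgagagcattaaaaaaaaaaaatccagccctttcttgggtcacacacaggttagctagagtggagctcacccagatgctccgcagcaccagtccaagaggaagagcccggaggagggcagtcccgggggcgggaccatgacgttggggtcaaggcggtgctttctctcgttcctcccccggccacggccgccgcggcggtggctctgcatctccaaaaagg

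Cytosolic ribosomal protein genes fell, 27 of 32 with 0 higher, at a median of -1.58, or -1.23 relative to the length classes. Rps24 had 845 and 730.0 CPM at number 5, 5234 and 2228 CPM at number 3 and 4884 and 2327 CPM at number 1, and Rpl35 had 371 and 439.8 CPM at number 5, 2804 and 1076 CPM at number 3 and 2234 and 1192 CPM at number 1. Both number 5 libraries were lowest, and at numbers 3 and 1 the eGFP+ library was above the tdTomato+ library. The log2 fold changes were -2.07 ± 0.47 and -1.94 ± 0.44 (edgeR adjusted p = 0.00123 and 0.00144). Against number 3, all 32 fell at number 5, with a median of -2.04, while number 3 against number 1 gave 0 higher and 0 lower with a median of 0.48. In the Fsk pair 24 of 32 were higher at number 5, with a median of 0.18. These genes have many near-identical pseudogenes, and it is not known how the authors counted shared reads. Leaving out the number 1 eGFP+ library left 0 of the 27 calls (Rps24 at -1.93, adjusted p = 0.109; Rpl35 at -1.82, adjusted p = 0.0808), while 3 were called without the number 1 tdTomato+ library, 8 without the number 5 eGFP+ library and 1 in the fit of all 10 libraries.

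All 13 protein-coding genes of the mitochondrial genome had a negative fold change, and 7 passed the test, at a median of -1.53, or -0.996 relative to the length classes. They encode subunits of the respiratory chain and of ATP synthase. The 2 mitochondrial ribosomal RNA genes went the other way, at a median of 1.74, with 0 called. All mitochondrial genes with these RNAs included took 4.15% and 2.13% of counts at number 5, 2.92% and 2.81% at number 3, and 3.22% and 4.94% at number 1. mt-Nd1 had 2979 and 1897 CPM at number 5, 7064 and 4498 CPM at number 3 and 6443 and 8242 CPM at number 1, and mt-Nd5 had 1707 and 1180.4 CPM at number 5, 1902 and 1539 CPM at number 3 and 3489.9 and 3353 CPM at number 1. Both number 5 libraries were below both number 1 libraries in both genes. They were also below number 3 for mt-Nd1, while numbers 5 and 3 overlapped for mt-Nd5. The log2 fold changes over number 1 were -1.65 ± 0.49 and -1.27 ± 0.44 (edgeR adjusted p = 0.0156 and 0.0372). Values for mt-Co3 (-2.45) and mt-Atp6 (-3.07) had the smallest p of the list, but both lie in a stretch that has near-identical nuclear copies and are uncertain. Number 5 was the higher of the Fsk pair in 13 of 13 genes, at a median of 0.75. Without the number 1 eGFP+ library 3 were called, without the number 1 tdTomato+ library 4, and in the fit of all 10 libraries 0.

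Immediate early genes, which cells switch on within minutes of a stimulus or of handling, had 10 of 20 higher and 1 lower at a median of 0.81. Egr3, a zinc finger transcription factor, had 76.5 and 55.3 CPM at number 5, 5.59 and 16.1 CPM at number 3 and 11.6 and 18.9 CPM at number 1. Egr1 had 1236 and 1215 CPM at number 5, 236 and 403 CPM at number 3 and 247 and 447 CPM at number 1, and the orphan nuclear receptor gene Nr4a1 had 589 and 467 CPM at number 5, 89.2 and 142 CPM at number 3 and 184 and 188 CPM at number 1. Both number 5 libraries were the highest in all 3 genes, while numbers 3 and 1 overlapped for Egr3 and Egr1 and number 3 was lowest for Nr4a1. Log2 fold changes over number 1 were 2.22 ± 0.38, 1.90 ± 0.39 and 1.51 ± 0.34 (edgeR adjusted p = 4.74e-05, 0.000408 and 0.00135). Dusp6, a phosphatase that dampens ERK signalling, had 495 and 528 CPM at number 5, against 155 and 199.5 CPM at number 1 (log2 fold change 1.54), and Myc had 64.4 and 70.03 CPM at number 5, against 27.8 and 34.9 CPM at number 1 (1.10). Among AP-1 members Fosb rose (1.09), while Fos had 224 and 204 CPM at number 5, against 219 and 297 CPM at number 1 and Junb had 502 and 623 CPM at number 5, against 447 and 475 CPM at number 1, which did not pass the test. Without the number 1 eGFP+ library 3 members were called higher and without the number 1 tdTomato+ library 6. The Fsk pair had a median of -0.21, with 5 members past 2-fold higher at number 5 and 1 lower, against 11.1% and 11.8% of all tested genes.

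The largest rises by the naming rule were, besides Col14a1 and Mki67, Arc, Col22a1, Lrrn1, Epha4, Tril and Ptprt. Arc, an immediate early gene best known from neurons, had 138 and 104 CPM at number 5, 6.02 and 19.1 CPM at number 3 and 3.78 and 4.08 CPM at number 1. Col22a1, a collagen of tissue junctions such as the tendon to muscle border, had 78.2 and 52.8 CPM at number 5, 2.65 and 6.51 CPM at number 3 and 1.65 and 3.82 CPM at number 1. Lrrn1, a leucine-rich repeat membrane protein, had 28.9 and 21.5 CPM at number 5, 1.43 and 1.9 CPM at number 3 and 0.551 and 1.41 CPM at number 1. In all 3 both number 5 libraries were above all libraries of numbers 3 and 1, and Col22a1 had 26.2 CPM in the eGFP+ library numbered 4. The log2 fold changes over number 1 were 4.99 ± 0.43, 4.70 ± 0.44 and 4.70 ± 0.53 (edgeR adjusted p = 1.32e-09, 5.98e-10 and 8.7e-09). They were higher at number 5 in the Fsk pair too, by 1.83, 2.59 and 3.56 on the log2 scale. Epha4, an ephrin receptor, had 38.8 and 40.4 CPM at number 5, 11.3 and 25.8 CPM at number 3 and 0.826 and 3.61 CPM at number 1, with number 3 in between (4.39 ± 0.44). Tril, an adapter of toll-like receptor signalling, and Ptprt, a receptor phosphatase, rose by 4.30 and 4.04. In the Fsk pair Epha4 and Ptprt were higher at number 5, by 1.12 and 0.57. Col14a1, Mki67 and Tril went the other way there, with differences of -0.84, -0.09 and -0.29. The fit of all 10 libraries did not call Col14a1, Mki67, Tril or Ptprt.

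The largest falls by the same rule were, besides Ankrd37, those of Serpinb1a, Tnnt2, Cda, Prss46, Il33, Ecm1 and Slpi. Serpinb1a, an intracellular inhibitor of serine proteases, had 0.205 and 0.397 CPM at number 5, 0 and 0.359 CPM at number 3 and 19.5 and 31.05 CPM at number 1. It was all but absent at numbers 5 and 3 and present in both populations at number 1, at a log2 fold change of -6.42 ± 0.61 for number 5 over 1 (edgeR adjusted p = 1.5e-10). Slpi, a secreted protease inhibitor, had 17.4 and 4.8 CPM at number 5, 326 and 53.003 CPM at number 3 and 218 and 124 CPM at number 1. Ecm1, extracellular matrix protein 1, had 35.6 and 29.5 CPM at number 5, 342 and 277 CPM at number 3 and 647 and 635 CPM at number 1. Ecm1 and Slpi were lowest at number 5 (-4.31 ± 0.39 and -4.24 ± 0.39, edgeR adjusted p = 5.49e-11 and 2.7e-10), and the Fsk pair differed by -3.18 for Ecm1 and 0.07 for Slpi. Tnnt2, which encodes cardiac troponin T, had 1.43 and 0.991 CPM at number 5, 10.9 and 7.95 CPM at number 3 and 62.6 and 21.2 CPM at number 1 (-4.97 ± 0.45, edgeR adjusted p = 5.49e-11). The cytokine gene Il33 had 2.2 and 1.19 CPM at number 5, against 31.3 and 37.2 CPM at number 1 (-4.36), the cytidine deaminase gene Cda had 1.18 and 1.11 CPM at number 5, against 37.3 and 23.4 CPM at number 1 (-4.65), and the serine protease gene Prss46 had 1.53 and 1.74 CPM at number 5, against 47.3 and 27.1 CPM at number 1 (-4.42).

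Stress genes and inhibitors of the cell cycle had calls mostly lower, while their other members lay on both sides. Counts here are read against 9.92% lower and 7.51% higher among all tested genes. Of 12 heat shock chaperones 4 fell and 0 rose, among them Hspb1, with 17.6 and 20.3 CPM at number 5, 109.5 and 73.8 CPM at number 3 and 164 and 114 CPM at number 1 (-2.83 ± 0.34, edgeR adjusted p = 3.02e-08), and Hspa1a, which shares reads with its near-identical neighbour Hspa1b. Of the 12, 6 had a positive and 6 a negative fold change, and the list median of -0.07 turned to 0.49 with library totals alone, where 3 were called higher and 3 lower. Of 23 genes of endoplasmic reticulum stress and amino acid supply 7 fell and 1 rose, at a median of -0.36 that turned to 0.19 with library totals alone. The members that fell numbered 4 when either number 1 library was left out. Hsp90b1, a chaperone of the endoplasmic reticulum, had 234 and 136 CPM at number 5, 687 and 511 CPM at number 3 and 1032 and 694 CPM at number 1 (-2.24 ± 0.38, edgeR adjusted p = 2.73e-05). Of 14 inhibitors of cyclin-dependent kinases and p53 targets 3 fell and 0 rose, at a median of 0.04 with 8 positive and 6 negative members, and library totals alone gave 2 higher and 2 lower. Cdkn2a, whose products p16 and p19 restrain the cell cycle and mark senescent cells, had 14.3 and 22.3 CPM at number 5, 61.7 and 57.2 CPM at number 3 and 181 and 115 CPM at number 1, lowest at number 5 and highest at number 1 in both populations (-2.999 ± 0.35, edgeR adjusted p = 1.88e-08). Its neighbour Cdkn2b had 41.3 and 67.8 CPM at number 5, against 214 and 125 CPM at number 1 (-1.62, lost without the number 1 eGFP+ library at an adjusted p of 0.202). Cholesterol synthesis genes had 6 of 20 lower and 0 higher at a median of -0.39, which turned to 0.17 with library totals alone, and 0 were called without the number 1 eGFP+ library. Of 17 interferon response and antigen presentation genes 4 fell and 0 rose, and of 12 chemokines and cytokines 3 fell and 1 rose.

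Markers of other cell types are read against 17.4% of all tested genes called in either direction, and the called shares of most of these short lists lay above it. Blood and macrophage markers had 6 of 14 tested, with 2 lower (Cd14 and Cd68) and a summed level of 29.15 and 34.4 CPM at number 5, 140.5 and 117.5 CPM at number 3 and 63.6 and 67.0 CPM at number 1, while Tyrobp, C1qa, C1qb, Hba-a1 and Hbb-bt had 0 reads in all 6 libraries and Ptprc at most 8. Epithelial and endoderm markers had 8 of 19 tested, 1 higher and 2 lower (Krt18 and Epcam), and summed to 23.2 and 7.69 CPM at number 5, 144 and 35.0 CPM at number 3, and 52.4 and 9.30 CPM at number 1. Their higher level in eGFP+ cells held at every number. Endothelial markers had 6 of 12 tested, with Erg, described above, higher and Egfl7 lower, and Cdh5 had at most 9 reads. Neural markers summed to 77.1 and 61.4 CPM at number 5 against 60.0 and 45.3 CPM at number 1, with 2 of 8 higher (Map2 and Elavl3). Skeletal muscle markers had 9 of 20 tested with 2 higher and 1 lower, and Myod1 and Myog had at most 4 reads. Pluripotency markers had 2 of 12 tested, Klf4 higher, and Pou5f1 at most 8 reads. Smooth muscle markers summed to 441 and 425 CPM at number 5 against 936 and 772 CPM at number 1, with 2 of 12 lower (Tpm2 and Acta2). Adipocyte markers had 7 of 12 tested and 1 lower (Fabp4), and notochord markers 9 of 11 tested and 2 lower (T and Krt18). Whether a change in the cell mixture took part in the results was not tested. Among position genes, 0 of 12 sclerotome and somite factors and 0 of 13 HOX genes passed the test in either direction, and 2 of 12 limb and craniofacial factors, Alx4 and Msx1, rose.

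Number 3 lay on different sides for different gene groups. Number 3 against number 1 had 1331 genes higher (8.01%) and 1815 lower (10.9%), and number 5 against number 3 had 1771 higher (10.7%) and 1668 lower (10%). These 3 comparisons share libraries, so their values are given side by side with no test among them. Mitosis genes had medians of 2.63 for number 5 over 1, 1.79 for number 3 over 1 and 0.79 for number 5 over 3. Glycolysis and hypoxia genes had -1.64, -0.19 and -1.29 in the same order, and ribosomal protein genes -1.58, 0.48 and -2.04. Chondrocyte genes had 0.56, 1.35 and -0.16. Hedgehog genes had 1.07, -0.07 and 1.27, and immediate early genes 0.81, -0.24 and 1.07. Epithelial and endoderm markers had -1.19, 1.64 and -2.87. Leaving out the number 1 eGFP+ library lowered the calls of number 3 over 1 to 219 higher and 492 lower, and leaving out the number 3 eGFP+ library lowered those of number 5 over 3 to 346 and 368.

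The Fsk pair offers a look at numbers 5 and 1 in libraries the DMSO comparison did not use, with 1 library a side and therefore no test, as the plot of list medians shows. Of the 1248 genes that rose in DMSO, 811 (65%) were higher in the Fsk library numbered 5 than in the one numbered 1, against 49.3% of all tested genes, with a median difference of 0.29 on the log2 scale. Of the 1647 that fell, 1011 (61.4%) were lower, against 50.4% of all, with a median of -0.27. Over all tested genes the fitted DMSO change and the Fsk difference correlated at r = 0.329, a description over genes, which are not independent replicates. Lists differed in sign: glycolysis and hypoxia genes were lower at number 5 in both conditions, while mitosis and mitochondrially encoded genes had opposite signs. Whether the number marks the same thing in the Fsk and DMSO conditions is not given by the labels.

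**Figure D5:**
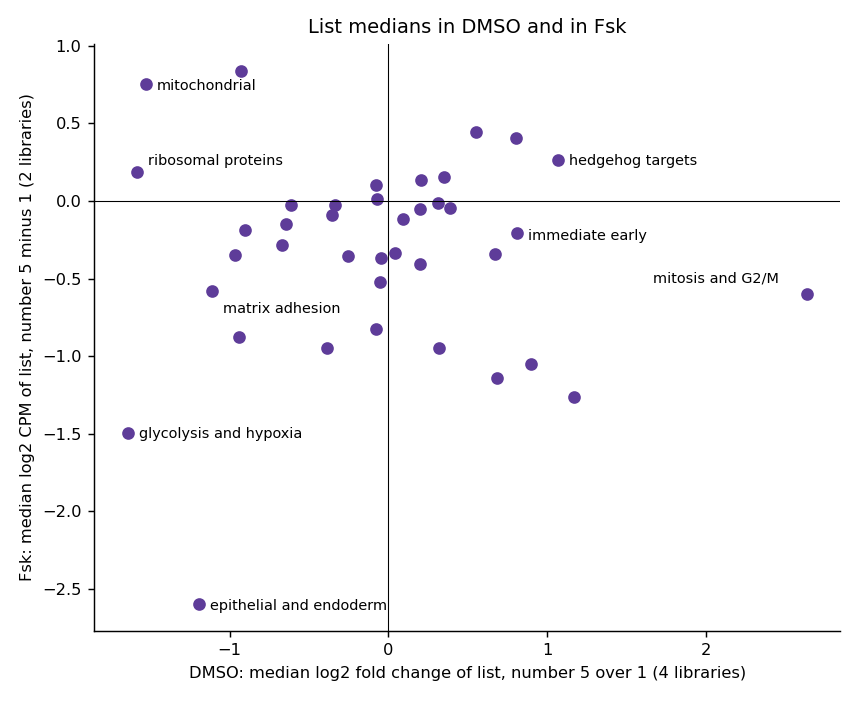
Median of each list with at least 5 tested members, as the log2 fold change of number 5 over number 1 in DMSO (horizontal, 4 libraries) and as the log2 CPM difference of number 5 minus number 1 in Fsk-treated Prg4-tdTomato+ cells (vertical, 2 libraries). Glycolysis and hypoxia genes lie at -1.64 and -1.49, and mitosis genes at 2.63 and -0.60.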

How the data were processed

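The values are raw gene-level read counts that the authors deposited for 56748 genes in 10 libraries. RNA was taken up in Trizol and selected for poly(A), per the labels. The build was mm10, per the submitters' processing notes. Aligner, counter, annotation and strand: not given in the sources used here. Hence overlapping genes, antisense genes and near-identical copies are uncertain. Columns were mapped to samples by the labels' descriptions, and 0 other columns were present. GENCODE M21 holds 52073 (91.8%) of the identifiers, and classes, exon lengths and GRCm38 positions come from it.

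Counts of the 6 DMSO libraries numbered 5, 3 and 1 went into edgeR 4.0.16 under R 4.3.3: filterByExpr by number (16610 genes), TMM, glmQLFit (robust) with number and sorted population as terms, glmQLFTest, and Benjamini-Hochberg adjustment over all tested genes at 0.05. A standard error is the log2 fold change divided by the square root of F. Printed levels are CPM on TMM-scaled totals of all 10 libraries. Differences within a population and within Fsk are of log2 CPM with a prior count of 2, with 1 library a side and no test.

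The members and lists were chosen with earlier results of these data known. The imprinted and nuclear noncoding RNA lists, the fit with library totals alone and that of protein-coding genes alone were added after seeing the data. Named genes were Spp1, Cd44, Lox, Tnmd, Col2a1 and Prg4, the 8 largest rises and falls among called protein-coding genes whose higher number averaged 20 CPM or more with no overlap between numbers, and up to 3 called members by smallest p of the matrix lists or 2 of other lists with at least 3 calls. Other members named in the text were chosen after their values were seen. Alternatives were DESeq2 1.42.0, limma-voom (limma 3.58.1), RLE scaling, 2 other filters, numbers 5 and 1 alone, all 10 libraries, no sorted population term, a 2-fold threshold, removal of ribosomal RNA and mitochondrial rows, and each library left out. The steps were tested on simulated counts. Promoter windows are RefSeq's (GRCm38.p6). One result for a member of the osteoblast and hypertrophy list is not reported here.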

Additional observations from a re-analysis of the deposited data

Results flagged for a closer look

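Col2a1 differed by 1.18 on the log2 scale between numbers 5 and 1 in eGFP+ cells and by -1.20 in tdTomato+ cells. The signs are opposite with 1 library a side, and the difference between the populations was not tested.

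Among the 4 eGFP+ DMSO libraries, 1 library stood apart from the other 3 by Dixon's rule for 8 of the named genes. Chance flags about 1 in 20 groups, but that rate does not apply here, since most of the named genes were picked for a difference between numbers 5 and 1. The number 5 library was far above the others for Col14a1 (69.7 CPM, the next highest at 5.81), Arc (138 CPM, next 21), Lrrn1 (28.9 CPM, next 2.43), Mki67 (41.1 CPM, next 5.95) and Egr3 (76.5 CPM, next 13.9). The number 1 library was highest for Tnnt2 (62.6 CPM, next 10.9) and Col5a3 (11.3 CPM, next 3.65). The number 3 library was highest for Ibsp (133 CPM, next 9.02).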

How the results depend on the processing

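No paired analysis was possible because the replicate number is itself the factor compared, so it cannot also serve as a block. Of 78 named genes 76 passed the test, 31 of them kept their sign and call in all 18 alternatives, and 0 changed sign. Col2a1, which did not pass, changed sign in 7: limma-voom (-0.21), numbers 5 and 1 alone (-0.001441), all 10 libraries (-0.35), and without eGFP+ number 5 (-1.02), eGFP+ number 3 (-0.033), tdTomato+ number 3 (-0.030) or eGFP+ number 1 (-0.78). Without tdTomato+ number 5 it passed, at 1.02.

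Counts are given as higher and lower for numbers 5 over 1, 3 over 1 and 5 over 3. With all 10 libraries they were 287 and 611, 723 and 1203, 896 and 892, with 1 ribosomal protein, 0 mitochondrial, 0 mitosis and 6 immediate early genes called. Without the sorted population as a term they were 369 and 697, 655 and 921, 618 and 904, with 5 ribosomal protein, 3 mitochondrial and 5 adhesion genes. At a 2-fold threshold they were 266 and 310, 204 and 306, 325 and 370, with 6 glycolysis, 0 ribosomal protein, 3 mitochondrial, 2 immediate early and 3 adhesion genes. With library totals alone they were 2931 and 567 for 5 over 1, 739 higher for 3 over 1, and 4609 and 540 for 5 over 3, with 17 ribosomal protein, 4 mitochondrial and 4 adhesion genes. Leaving out 1 library at a time gave 221 to 2179 higher and 498 to 2089 lower for 5 over 1, 219 to 1933 and 492 to 2619 for 3 over 1, and 346 to 2311 and 368 to 1896 for 5 over 3. Called members ranged over 7 to 22 for glycolysis, 0 to 31 for ribosomal proteins, 3 to 8 for mitochondrial, 7 to 21 for mitosis, 3 to 12 for immediate early and 3 to 9 for adhesion genes. With 1 library left out, the lone library of a number is assumed to vary like the others. The causes were not tested. The effect of depth, 15561217 to 20408696 counts a library, was not tested.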

Other observations

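Imprinted genes, expressed from 1 parental copy, had 13 of 30 higher and 1 lower at number 5 against number 1, at a median of 0.89, or 0.52 relative to the length classes, in a list added after seeing the data. Mest had 2187 and 2246 CPM at number 5, 469.6 and 604 CPM at number 3 and 119 and 370.2 CPM at number 1, and the zinc finger gene Zim1 had 376 and 153 CPM at number 5, 60.6 and 101 CPM at number 3 and 17.2 and 21.3 CPM at number 1. The number 5 libraries were highest in both genes, at log2 fold changes of 3.36 ± 0.46 and 3.76 ± 0.41 (edgeR adjusted p = 5.46e-07 and 2.53e-07). H19 and Meg3, noncoding RNAs of other imprinted clusters, rose too. H19 had 193 and 154 CPM at number 5, 199 and 137 CPM at number 3 and 50.03 and 51.5 CPM at number 1, and Meg3 had 767 and 523 CPM at number 5, 469 and 716 CPM at number 3 and 127 and 106 CPM at number 1. For both, numbers 5 and 3 were above number 1. Dlk1, an inhibitor of differentiation, did not pass the test and was highest at number 3, with 266 and 40.2 CPM at number 5, 1014 and 524 CPM at number 3 and 125 and 30.2 CPM at number 1. Without the number 1 eGFP+ library 6 were called higher.

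Nuclear long noncoding RNAs, also added after seeing the data, had 5 of 8 higher and 0 lower, at a median of 2.08. Leaving out either number 1 library gave 3 called, and the fit of all 10 libraries gave 2 with a median of 0.9996. Malat1 had 1487 and 1495 CPM at number 5, 588 and 1389 CPM at number 3 and 350.4 and 393 CPM at number 1, and Neat1 had 263 and 488 CPM at number 5, 41.2 and 104 CPM at number 3 and 64.3 and 51.5 CPM at number 1.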
